A study of Mus musculus with 8 samples.

Results

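The genes described here are 9 members of the tumour necrosis factor (TNF) superfamily and of its receptor family, taken by gene symbol from 24346 genes measured by RNA-seq in sorted mouse colon stroma. They are the ligand genes Tnf, Tnfsf11 (RANKL) and Tnfsf13b (BAFF), the receptor genes Tnfrsf1a (TNFR1), Tnfrsf1b (TNFR2), Ltbr (the lymphotoxin beta receptor), Cd40 and Tnfrsf12a (Fn14), and Tnfrsf11b (osteoprotegerin, OPG), which encodes a secreted decoy receptor. All 9 symbols were found. Libraries came from the large intestine of 8 mice aged 12 weeks. The cKO group held 4 mice with the genotype Pdgfra cre; Il10ra flox/flox, and the WT group 4 mice with the genotype Il10ra flox/flox and no Cre, so that both groups carried the floxed alleles of the interleukin-10 receptor gene. Cre expression followed Pdgfra, which fibroblasts of the gut express, and the labels do not say how many of the sorted cells had recombined. Live cells positive for podoplanin and negative for CD45, CD31 and EpCAM were sorted, and SMART-Seq cDNA libraries were made from them.

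Ligands of the TNF superfamily bind as trimers to receptors that recruit TRAF adaptors or death domain proteins and switch on NF-kB and MAP kinase signalling. In mucosal stroma, signalling through TNFR1 and the lymphotoxin beta receptor drives chemokine and adhesion molecule genes and the formation of lymphoid tissue. RANKL from stromal cells below the follicle epithelium induces M cells, OPG binds RANKL and blocks it, and BAFF keeps B cells alive. The series' title names the question as whether the interleukin-10 receptor in fibroblasts limits type I interferon signalling and intestinal pathology.

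Values are FPKM (fragments per kilobase of transcript, scaled to the mapped fragments of each library), so that levels of different genes can be set side by side. Relative depth read from the steps of low values ran from 0.859 to 1.08 between libraries. The targeted gene Il10ra was at 0.439, 0.273, 0.633 and 0.636 FPKM in cKO replicates 1 to 4, against 0.842, 0.665, 0.614 and 0.403 FPKM in WT replicates 1 to 4 (two-sided exact permutation p = 0.4). It is a single value over all exons, and which exons are floxed is not stated in the labels, so the genotypes could not be checked with it. Il10ra was also below 1 FPKM in all 8 libraries, those of WT included, and which cells gave its transcripts was not tested. Fibroblast markers (9 genes, among them Dcn, Col3a1 and Col1a1) summed to 17830 to 21720 FPKM in cKO and 19620 to 20580 FPKM in WT libraries. The epithelium list (12 genes, led by Guca2a, Car1 and Krt8) summed to 973, 505, 133 and 48.3 FPKM in cKO replicates 1 to 4, against 57.4 to 124 FPKM in WT libraries, and Epcam itself was at 34.7 FPKM in cKO replicate 1. That library was also highest for the myeloid list (12 genes, led by Lyz2, Laptm5 and Tyrobp), with 184 FPKM against 89.2 to 98.0 FPKM in the other cKO and 81.9 to 113 FPKM in the WT libraries. It was highest for the lymphoid list too (10 genes, led by Jchain, Cd79a and Coro1a), with 176 FPKM against 38.4 to 89.5 FPKM in the other cKO and 50.3 to 89.7 FPKM in the WT libraries. Jchain alone was at 136 FPKM in cKO replicate 1. Coro1a was highest there at 11.5 FPKM, but Cd79a was at 8.35 FPKM, against 14.1 FPKM in cKO replicate 4. Ptprc, the gene of CD45, was at 4.15 FPKM there, against 1.99 to 4.01 FPKM in the other cKO and 2.49 to 3.98 FPKM in the WT libraries. Blood endothelial markers (8 genes, led by Plvap, Kdr and Esam) summed to 10.3 to 25.9 FPKM in cKO and 5.97 to 9.74 FPKM in WT libraries, without overlap. Lymphatic endothelial markers (6 genes, led by Lyve1, Mmrn1 and Prox1) summed to 1.42 to 3.48 FPKM in cKO and 0.718 to 1.57 FPKM in WT libraries. Smooth muscle and pericyte markers (9 genes, led by Acta2, Tagln and Des) summed to 49.0 to 90.5 FPKM in cKO and 56.2 to 65.9 FPKM in WT libraries, and mesothelial markers (6 genes, led by Krt19, Wt1 and Msln) to 8.67 to 108 FPKM in cKO and 11 to 18.4 FPKM in WT libraries. Krt19 is also in the epithelium list, so it counts in both tallies below, and was at 98.2 FPKM in cKO replicate 1. Wt1 had means of 2.44 FPKM in cKO and 2.67 FPKM in WT, and Msln 1.00 FPKM in cKO and 0.625 FPKM in WT. No marker of these lists was at 0 in any library. The mean was higher in cKO for 12 of 12 epithelial, 10 of 12 myeloid, 6 of 10 lymphoid and 8 of 8 blood endothelial genes. The same was so for 5 of 6 lymphatic, 8 of 9 smooth muscle and pericyte, 5 of 6 mesothelial and 3 of 9 fibroblast genes. Over all tested genes the share was 47.4%. A higher cKO mean was not a shift of every library, since cKO replicate 4 had the lowest epithelium sum of all 8. Beyond a fit with the epithelium list as a covariate, the part of these cells in the values below was not tested.

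In both genotypes the receptor genes of the family summed to higher levels than the ligand genes. Of the 28 receptor genes of the superfamily in the files, 16 had a mean of at least 1 FPKM over the 8 libraries and 6 reached 10 FPKM. Of the 18 ligand genes, 6 had a mean of at least 1 FPKM and 3 reached 10 FPKM. The receptor genes summed to 489 ± 51.4 FPKM in cKO and 513 ± 25.7 FPKM in WT libraries (SD, n = 4 each), and the ligand genes to 116 ± 2.58 FPKM in cKO and 122 ± 9.09 FPKM in WT libraries. Tnfrsf12a alone made up 53.0% of the summed mean FPKM of the 9 genes in cKO and 55.1% in WT.

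**Figure D1:**
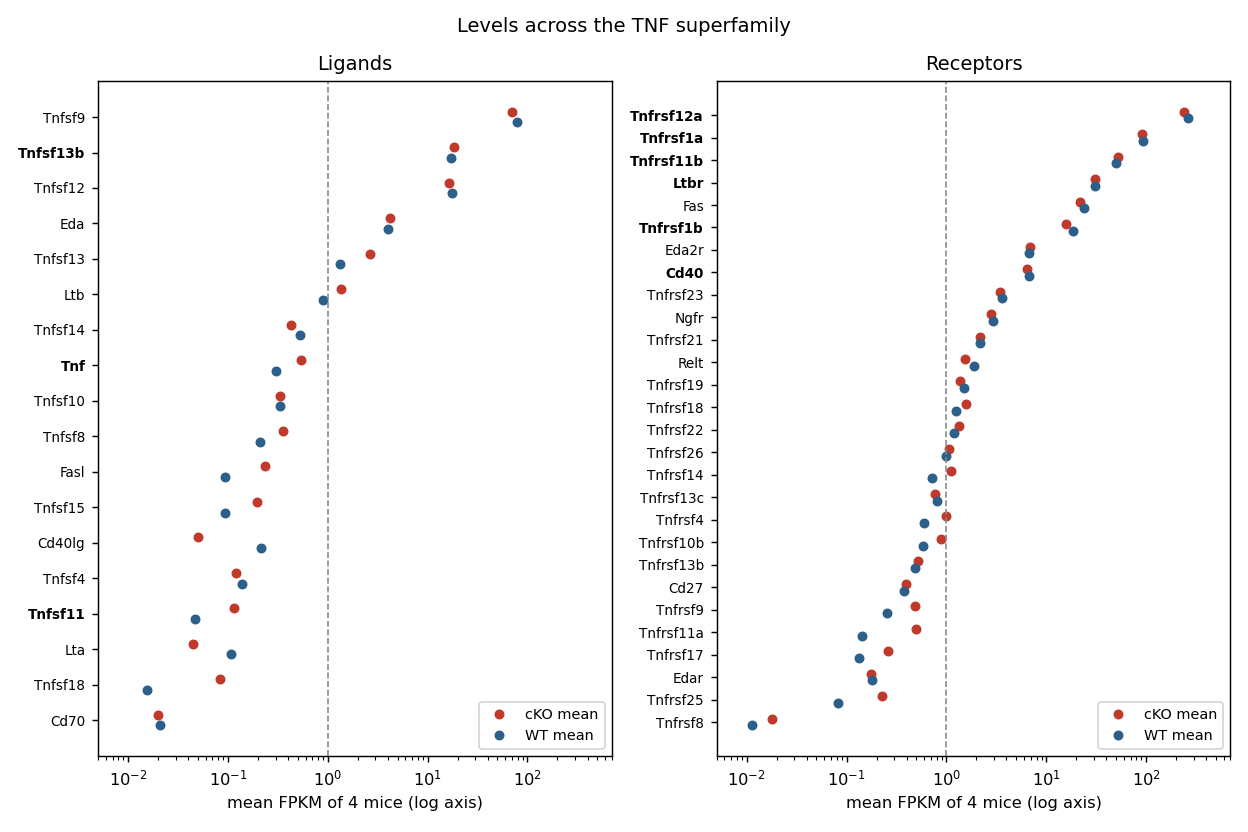
Mean FPKM (log axis) of every TNF superfamily ligand (left) and receptor (right) in the files, with cKO means in red and WT means in blue (4 mice each) and the 9 genes described here in bold. The dashed line marks 1 FPKM, which 6 of 18 ligands and 16 of 28 receptors reached over the 8 libraries.

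The order of levels was the same in all 8 libraries except at 1 place. Tnfrsf12a came first with a mean of 253 FPKM over the 8 libraries, above 97.2% of the tested genes, followed by Tnfrsf1a at 91.6 FPKM, Tnfrsf11b at 50.9 FPKM and Ltbr at 30.9 FPKM, with no overlap between the ranges of neighbours. Tnfsf13b at 17.6 FPKM and Tnfrsf1b at 17.0 FPKM were not separated, and Tnfsf13b was the higher of the pair in 4 of 8 libraries. Cd40 followed at 6.60 FPKM, Tnf at 0.424 FPKM and Tnfsf11 at 0.0808 FPKM. The ranges of Tnf and Tnfsf11 overlapped between libraries, although Tnf was the higher in each of the 8.

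Between genotypes none of the 9 genes passed the test. In limma on log2(FPKM + 1), with Benjamini-Hochberg adjustment over the 11506 genes with a mean of at least 1 FPKM, 0 of the 7 members above that minimum were called at an adjusted p under 0.05. Over all genes 1 was called, which is 0.00869% of those tested. At an unadjusted p under 0.05 in limma, 1 of the 7 members (Tnfrsf1b) was lower in cKO, against 3.03% of all tested genes in that direction, 2.37% in the other and 5.41% in both. The groups of the same gene did not overlap, with cKO below WT, as was so for 1.9% of all tested genes (3.26% in both directions). The median log2 difference was -0.02 over the 7 members (0.02 without cKO replicate 2 or without WT replicate 1) and -0.01 over all tested genes, and 2 of the 7 had a higher mean in cKO, as did 47.4% of all tested genes.

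**Figure D2:**
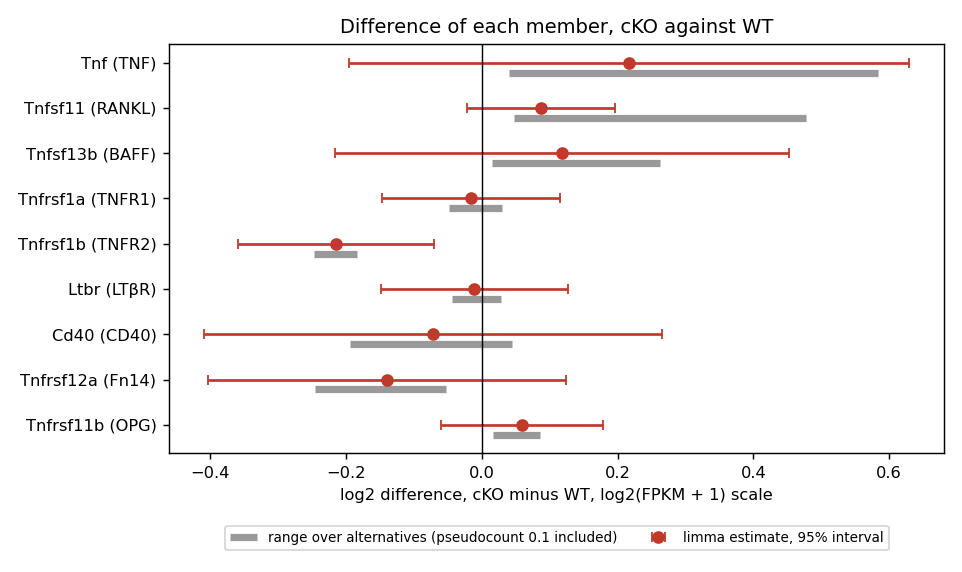
Log2 difference of each of the 9 genes, cKO minus WT, on the log2(FPKM + 1) scale. Red points are limma estimates with 95% intervals (4 mice in each group), and grey bars span the values under all alternative settings, including a pseudocount of 0.1. The interval of Tnfrsf1b, from -0.36 to -0.07 before adjustment for multiple tests, lies below 0, and the intervals of the other genes include 0.

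Tnf (chromosome 17, 35199381 to 35202007, mm10, minus strand), the founding cytokine of the family, was low in most libraries. It was at 1.17, 0.218, 0.376 and 0.407 FPKM in cKO replicates 1 to 4, against 0.271, 0.267, 0.114 and 0.566 FPKM in WT replicates 1 to 4. Only cKO replicate 1, the library with the highest epithelial, myeloid and lymphoid sums, lay above the WT range. Which cells gave that value was not tested. Tnf stayed below the minimum of 1 FPKM, and in limma without that minimum the log2 difference was 0.22 (SE 0.18, adjusted p = 0.925). Without cKO replicate 1 it was 0.04, and with the epithelium list as a covariate it was 0.05. In bulk libraries of this kind, a change in the number of cells of a type and a change in RNA per cell cannot be told apart.

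Tnfsf11 (chromosome 14, 78277445 to 78308043, minus strand) encodes RANKL, the ligand of RANK. Its values were 0.0508, 0.208, 0.146 and 0.0528 FPKM in cKO replicates 1 to 4, against 0.0534, 0.0308, 0.0523 and 0.0521 FPKM in WT replicates 1 to 4. Scaled by relative depth, these values are whole multiples of the lowest (tolerance 0.05). With that value taken as 1 fragment they stand for 2, 8, 6 and 2 fragments in cKO and 2, 1, 2 and 2 fragments in WT libraries. The totals were 18 fragments in cKO (95% Poisson interval 10.7 to 28.45) and 7 fragments in WT (2.81 to 14.4). These intervals cover counting error only and not the spread between mice, and their overlap is no test of a difference. The cKO libraries 2 and 3 stood above the WT range and cKO libraries 1 and 4 within it (limma without the minimum, log2 difference 0.09, SE 0.05, adjusted p = 0.914). The log2 difference was 0.05 without cKO replicate 2. Its receptor gene Tnfrsf11a (RANK) was at 1.36 FPKM in cKO replicate 1 and at 0.0779 to 0.350 FPKM in the other cKO libraries, against 0.0389 to 0.237 FPKM in WT libraries.

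Tnfsf13b (chromosome 8, 10006467 to 10039072, plus strand), the B cell survival factor BAFF, was the only one of the 3 ligand genes above the minimum, and it overlaps the annotated transcript Gm44789 on the other strand. It was at 15.6, 17.0, 20.4 and 19.98 FPKM in cKO replicates 1 to 4, against 13.2, 15.2, 22.8 and 16.6 FPKM in WT replicates 1 to 4. WT libraries held both the highest and the lowest value. The means were 18.3 ± 2.303 FPKM in cKO and 17.0 ± 4.15 FPKM in WT (SD, n = 4 each), with a log2 difference of 0.12 (95% interval -0.22 to 0.45, limma adjusted p = 0.961). The difference was 0.02 without WT replicate 1, 0.26 without WT replicate 3 and 0.26 with the epithelium list as a covariate. The BAFF and APRIL receptor genes of B cells were low in these CD45-depleted libraries. Tnfrsf13c was at 0.320 to 1.35 FPKM in cKO and 0.686 to 1.08 FPKM in WT libraries, and Tnfrsf13b at 0.196 to 1.13 FPKM in cKO and 0.291 to 0.684 FPKM in WT libraries.

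The TNF receptor genes differed in level and in how their groups compared. Tnfrsf1a (chromosome 6, 125349362 to 125362484, plus strand), the death domain receptor that most cells carry, was at 91.4, 90.2, 94.7 and 87.9 FPKM in cKO replicates 1 to 4, against 101, 85.9, 93.9 and 87.8 FPKM in WT replicates 1 to 4. All cKO values lay inside the WT range, and the log2 difference was -0.02 (95% interval -0.15 to 0.12, limma adjusted p = 0.99). It reversed to 0.01 with quantile normalization, to 0.03 without WT replicate 1 and to 0.0005 without cKO replicate 4.

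Tnfrsf1b (chromosome 4, 145213463 to 145246870, minus strand) encodes TNFR2, which has no death domain and responds best to membrane-bound TNF. It was at 16.8, 15.0, 14.6 and 16.3 FPKM in cKO replicates 1 to 4, against 18.2, 19.4, 17.2 and 18.7 FPKM in WT replicates 1 to 4. All 4 cKO libraries lay below all 4 WT libraries, with cKO replicate 1 and WT replicate 3 the nearest pair. The means were 15.7 ± 1.03 FPKM in cKO and 18.4 ± 0.931 FPKM in WT (SD, n = 4 each), a ratio of 0.85. The log2 difference was -0.22 (SE 0.06, unadjusted p = 0.00788 and adjusted p = 0.897 in limma), and the two-sided exact permutation p of 0.0286 is the smallest that 4 against 4 libraries can give. The difference did not pass over all genes. Its value ran from -0.25 to -0.18 when single libraries were left out, with the larger size without cKO replicate 1.

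As the ratio of both receptors within a library, Tnfrsf1b stood at 18.4%, 16.6%, 15.5% and 18.5% of Tnfrsf1a in cKO replicates 1 to 4, against 17.99%, 22.6%, 18.3% and 21.3% in WT replicates 1 to 4. The ranges overlapped. The mean log2 ratio, with 1 FPKM added to each value, was -2.46 ± 0.12 in cKO and -2.27 ± 0.16 in WT (SD, n = 4 each), a difference of -0.20 (two-sided exact permutation p = 0.171).

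The promoters of Tnfrsf1b and Tnfsf13b are shown because the study asks about interferon signalling and these were the members whose promoter held the core of the interferon-stimulated response element (ISRE). RefSeq windows on build GRCm38.p6, from 250 bases before to 50 bases after a gene's start, were found for 7 of the 9 genes (8 windows, Tnfsf13b having 2), and Tnfrsf11b and Cd40 were not matched. Capitals mark matches to the ISRE core (GAAA, any 2 bases, GAAA) or to the AP-1 motif TGANTCA on either strand, and no matches overlapped each other. The Tnfrsf1b window is chr4:145246821-145247120 (minus strand), and the Tnfsf13b window shown is chr8:10006383-10006682 (plus strand).
Tnfrsf1b: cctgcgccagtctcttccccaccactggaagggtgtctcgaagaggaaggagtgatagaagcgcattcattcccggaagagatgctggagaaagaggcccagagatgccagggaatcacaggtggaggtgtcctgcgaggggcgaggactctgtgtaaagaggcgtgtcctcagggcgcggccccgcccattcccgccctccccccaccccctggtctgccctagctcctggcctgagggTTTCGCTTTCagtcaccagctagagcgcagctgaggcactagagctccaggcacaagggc
Tnfsf13b: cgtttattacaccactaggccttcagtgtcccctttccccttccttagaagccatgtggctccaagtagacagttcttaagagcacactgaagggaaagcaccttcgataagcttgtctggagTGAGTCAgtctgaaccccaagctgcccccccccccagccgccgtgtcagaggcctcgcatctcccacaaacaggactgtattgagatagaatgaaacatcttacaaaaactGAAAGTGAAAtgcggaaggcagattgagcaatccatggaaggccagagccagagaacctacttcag
The ISRE core occupied bases 241 to 250 of the Tnfrsf1b window, on the opposite strand and ending at the base before the start, and bases 235 to 244 of the Tnfsf13b window. It was found in 2 of the 8 member windows, against 3.44% of 32851 windows of the same length over all genes. That count rests on 2 matches to a short core, and a difference from the share over all genes was not tested. The AP-1 match in the Tnfsf13b windows, which overlap, was 1 site that lies in both, and no other member window held the motif, against 7.81% of all windows. The NF-kB consensus, searched on both strands, was in 0 of the 8 member windows and in 8.46% of all windows. At that share, finding none in so few windows says little, and sequence outside the windows was not searched. The count therefore does not show that these genes lack NF-kB sites. Both genes with the ISRE core were uncalled between genotypes, with log2 differences of -0.22 for Tnfrsf1b and 0.12 for Tnfsf13b.

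Ltbr (chromosome 6, 125306571 to 125313885, minus strand), through which lymphotoxin and LIGHT signal to stroma, was at 30.1, 28.7, 31.4 and 33.1 FPKM in cKO replicates 1 to 4, against 33.7, 30.1, 30.3 and 30.1 FPKM in WT replicates 1 to 4. The groups overlapped, and the log2 difference of -0.01 (95% interval -0.15 to 0.13, limma adjusted p = 0.994) turned to 0.02 with the epithelium list as a covariate, to 0.03 without WT replicate 1 and to 0.02 without cKO replicate 2. Genes of its ligands were far lower. Ltb was at 0.167 to 2.195 FPKM in cKO and 0.476 to 1.26 FPKM in WT libraries, Lta at 0 to 0.136 FPKM in cKO and 0.0449 to 0.230 FPKM in WT libraries, and Tnfsf14 (LIGHT) at 0.309 to 0.633 FPKM in cKO and 0.255 to 0.782 FPKM in WT libraries.

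Cd40 (chromosome 2, 165055627 to 165072948, plus strand), best known from B cells and dendritic cells and also carried by fibroblasts, was at 6.86, 4.76, 7.03 and 6.96 FPKM in cKO replicates 1 to 4, against 7.56, 8.04, 6.64 and 4.96 FPKM in WT replicates 1 to 4. Each group held 1 low library, and the log2 difference was -0.07 (95% interval -0.41 to 0.27, limma adjusted p = 0.98). It reversed to 0.045 without cKO replicate 2 and to 0.0056 without WT replicate 2. Cd40lg, its ligand on activated T cells, was at 0 to 0.154 FPKM in cKO and 0 to 0.363 FPKM in WT libraries. Whether Cd40 came from stromal cells or from the remaining leukocytes was not tested.

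Tnfrsf12a (chromosome 17, 23675445 to 23677468, minus strand) encodes Fn14, a small receptor for the cytokine TWEAK that growth factors and tissue injury induce. It was at 296, 212, 263 and 199 FPKM in cKO replicates 1 to 4, against 271, 287, 259 and 242 FPKM in WT replicates 1 to 4. The cKO libraries spread wider, with a coefficient of variation of 18.5% in cKO and 7.17% in WT, and cKO libraries 2 and 4 lay below the WT range while cKO library 1 lay above it. The means were 242 ± 44.9 FPKM in cKO and 264 ± 19.0 FPKM in WT (SD, n = 4 each), and the log2 difference was -0.14 (95% interval -0.40 to 0.12, limma adjusted p = 0.931). It was -0.24 without cKO replicate 1, the library richest in epithelial transcripts, and -0.05 without cKO replicate 4. Tnfsf12, the gene of TWEAK, was at 14.8 to 18.1 FPKM in cKO and 17.4 to 18.05 FPKM in WT libraries, but it overlaps Tnfsfm13 on the same strand, so that its value is uncertain.

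Tnfrsf11b (chromosome 15, 54250619 to 54278484, minus strand), the gene of OPG, had the narrowest spread among WT libraries. It was at 56.9, 50.4, 49.9 and 50.7 FPKM in cKO replicates 1 to 4, against 49.9, 50.1, 50.4 and 48.8 FPKM in WT replicates 1 to 4. Apart from cKO replicate 1 the libraries of both groups lay within a few FPKM of each other, and the coefficient of variation was 6.33% in cKO and 1.43% in WT. Replicates 1, 2 and 4 of cKO lay above the WT range, replicate 2 only by 50.39 against 50.36 FPKM. The log2 difference was 0.06 (95% interval -0.06 to 0.18, limma adjusted p = 0.931) and 0.02 without cKO replicate 1. RANKL stood at 0.0892% to 0.412% of OPG in cKO and at 0.0614% to 0.107% in WT libraries. The mean log2 ratio of RANKL to OPG, with 1 FPKM added to each value, was -5.57 ± 0.17 in cKO and -5.60 ± 0.03 in WT (SD, n = 4 each; difference 0.03, two-sided exact permutation p = 0.83). On the same scale Tnfsf11 alone differed by 0.09 and Tnfrsf11b by 0.06. Tnfsf11 was at most 0.208 FPKM, so the added 1 FPKM sets the level of this ratio and compresses differences in Tnfsf11. The test on it therefore cannot decide whether RANKL relative to OPG differed between genotypes. The difference in the ratio reversed to -0.03 without cKO replicate 2 and was 0.42 with 0.1 FPKM added in place of 1.

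**Figure D3:**
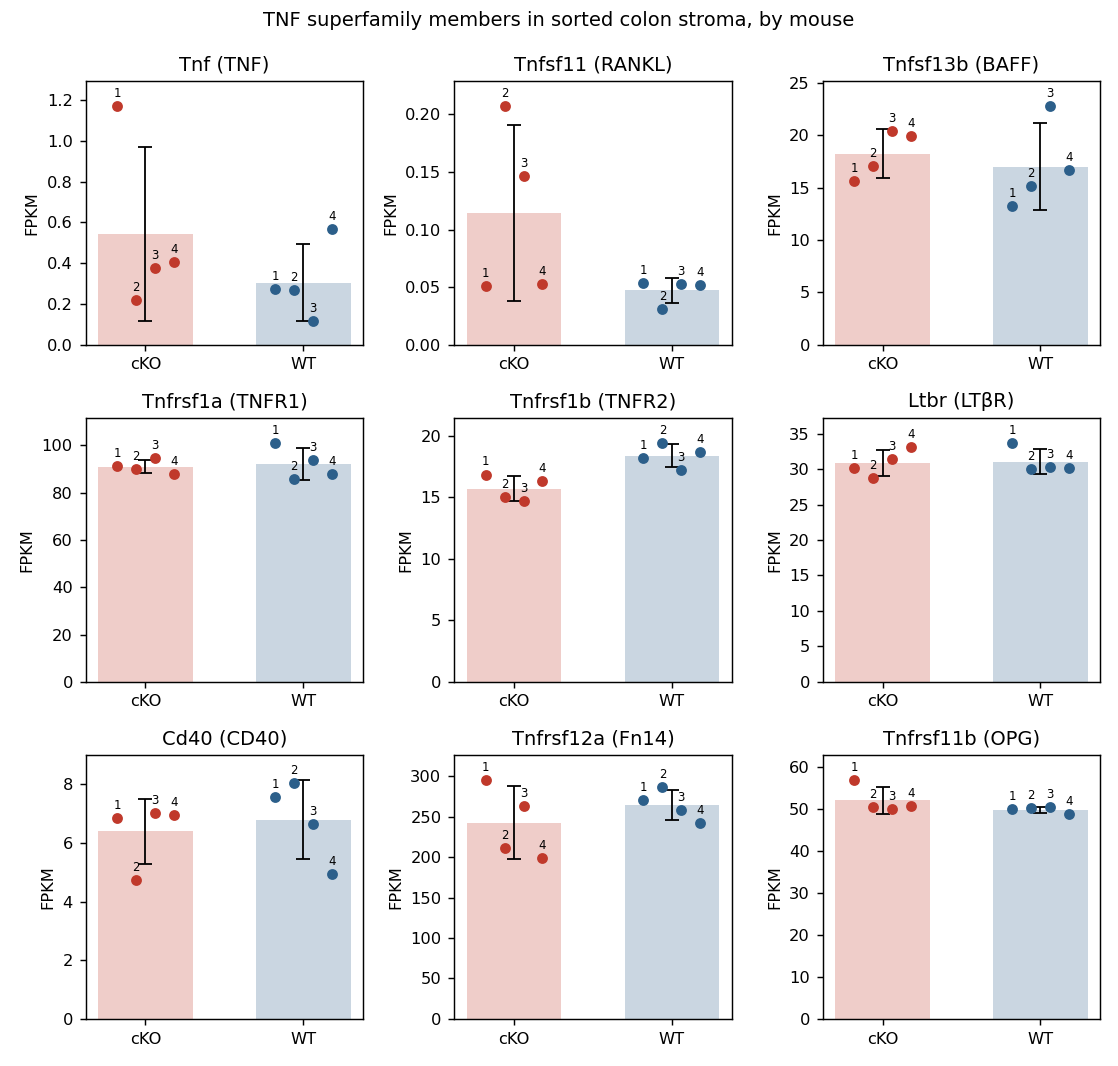
FPKM of the 9 genes in each mouse, with cKO (red) left of WT (blue). Points are single libraries numbered by replicate, bars are means of 4 mice and error bars SD. The cKO and WT points overlap in every panel except that of Tnfrsf1b, where the cKO libraries lie at 14.6 to 16.8 FPKM and the WT libraries at 17.2 to 19.4 FPKM.

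The highest and lowest values of the members fell in different libraries. In cKO replicate 1 Tnf, Tnfrsf12a and Tnfrsf11b had their highest values of all 8 libraries. Tnfsf11 and Cd40 were at 0.208 and 4.76 FPKM in cKO replicate 2, the highest and the lowest value of each gene. Tnfsf13b was highest in WT replicate 3. The patterns nearest to the 3 most variable tested members were found by the root-mean-square distance of standardised log2 values over the 8 libraries. Nearest to Tnfrsf12a were Dda1 (distance 0.192), Timp1 (0.197) and Tsku (0.221), and Timp1 was at 74.4, 46.4, 63.5 and 39.7 FPKM in cKO replicates 1 to 4, against 67.5, 75.04, 55.8 and 53.7 FPKM in WT replicates 1 to 4. Nearest to Cd40 were Frs3 (0.267), Glp2r (0.287) and Nkd2 (0.362), with Glp2r at 3.25, 1.59, 2.81 and 2.78 FPKM in cKO replicates 1 to 4, against 3.20, 3.21, 2.75 and 1.92 FPKM in WT replicates 1 to 4. Nearest to Tnfsf13b were Cds2 (0.253), Wwox (0.36) and Edil3 (0.382). These genes are the closest of 11506 tested genes over only 8 libraries, and the distance that chance would give was not examined.

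**Figure D4:**
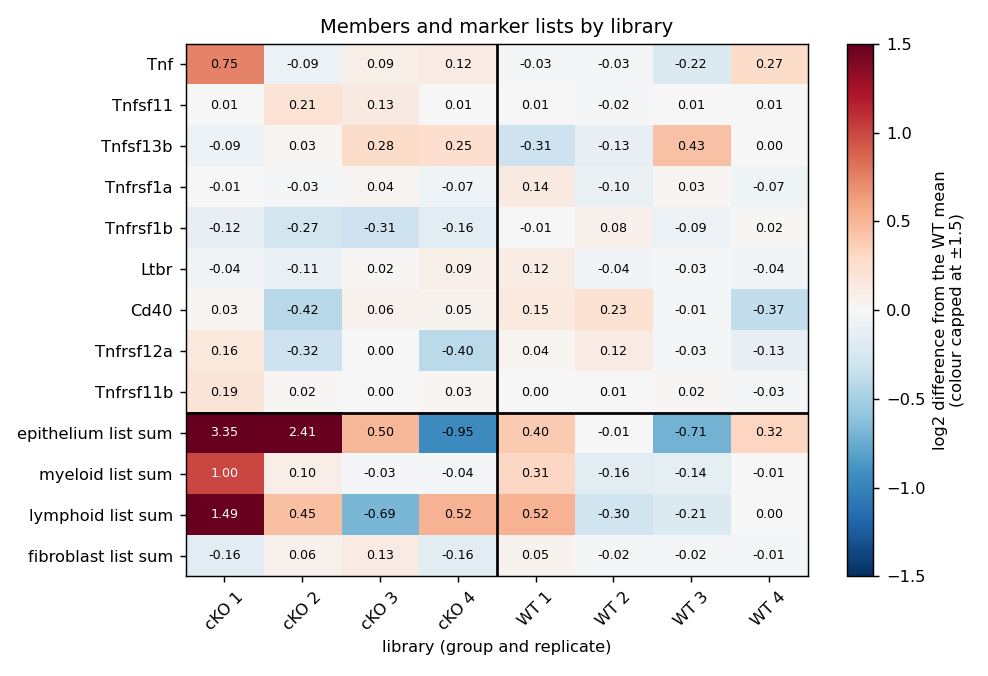
Log2 difference of each library (columns, cKO left of WT) from the WT mean, on the log2(FPKM + 1) scale, for the 9 genes (upper rows) and for the summed FPKM of 4 marker lists (lower rows). The epithelium sums of cKO libraries 1 and 2 (973 and 505 FPKM) stand apart from the rest, while Tnfrsf1b is below the WT mean in all 4 cKO libraries.

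Other ligand genes gave no call. Of 15 further ligands 5 were tested, 0 were called, and their median log2 difference was 0.06. The median turned to -0.14 with a minimum of 5 FPKM and to -0.03 without WT replicate 2. Tnfsf9 (4-1BBL), a costimulator of T cells and the most abundant ligand gene, was at 69.96, 70.2, 70.9 and 71.1 FPKM in cKO replicates 1 to 4, against 85.6, 71.3, 82.6 and 77.3 FPKM in WT replicates 1 to 4. Its groups did not overlap, with cKO below WT, as was so for 1 of the 5 tested ligands and 1.9% of all tested genes (3.26% in both directions). The highest cKO and the lowest WT library differed by less than the WT spread (log2 difference -0.16, SE 0.06, limma adjusted p = 0.897). Tnfsf13 (APRIL), a plasma cell survival factor, was at 4.96, 2.04, 2.12 and 1.57 FPKM in cKO replicates 1 to 4, against 1.83, 0.550, 1.83 and 1.11 FPKM in WT replicates 1 to 4. Its log2 difference was 0.62 (limma adjusted p = 0.897) and 0.36 without cKO replicate 1, and it too overlaps Tnfsfm13 on the same strand, which makes its value uncertain. Tnfsf12 had means of 16.3 ± 1.496 FPKM in cKO and 17.7 ± 0.322 FPKM in WT and Eda, the ectodysplasin gene, 4.20 ± 0.408 FPKM in cKO and 4.02 ± 0.697 FPKM in WT (SD, n = 4 each). The 10 untested ligands had at most 0.782 FPKM in any library.

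Of 22 further receptor genes 10 were tested and 0 called, with a median log2 difference of 0.00 and 5 of 10 higher in the cKO mean, against 47.4% of all tested genes. That median ran from -0.09 without WT replicate 3 to 0.08 with the epithelium list as a covariate. Fas, the death receptor for Fas ligand, was the most abundant, with 21.9 ± 1.51 FPKM in cKO and 23.7 ± 1.76 FPKM in WT (SD, n = 4 each; log2 difference -0.11, limma adjusted p = 0.922). Eda2r, a receptor of ectodysplasin A2, had 6.82 ± 1.36 FPKM in cKO and 6.66 ± 0.927 FPKM in WT. The decoy receptor gene Tnfrsf23 had 3.48 ± 0.779 FPKM in cKO and 3.61 ± 0.936 FPKM in WT, Relt 1.52 ± 0.674 FPKM in cKO and 1.90 ± 0.386 FPKM in WT, and Tnfrsf18 (GITR) 1.57 ± 0.568 FPKM in cKO and 1.26 ± 1.17 FPKM in WT. The direction of Eda, the ligand gene above, turned when single libraries were left out. The direction of Eda2r turned with quantile normalization, and those of Eda2r and Tnfrsf23 turned when single libraries were left out.

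Among 32 adaptors and regulators of these receptors 31 were tested and 0 called. Their median log2 difference was -0.03, and 10 of 31 were higher in the cKO mean, against 47.4% of all tested genes. At an unadjusted p under 0.05 in limma 2 of the 31 were lower in cKO, against 3.03% of all tested genes. Ripk1, the kinase recruited to TNFR1, had 34.2 ± 1.72 FPKM in cKO and 40.1 ± 4.36 FPKM in WT (SD, n = 4 each; log2 difference -0.22, limma adjusted p = 0.897), and it overlaps the pseudogene Gm17084 on the same strand and Serpinb6a on the other, which makes its value uncertain. Cyld, a deubiquitinase that restrains NF-kB signalling, had 5.04 ± 0.361 FPKM in cKO and 5.89 ± 0.290 FPKM in WT, with the 4 cKO libraries below the 4 WT libraries, as was so for 1 of the 31 adaptors and 1.9% of all tested genes (log2 difference -0.19, limma adjusted p = 0.897). Traf6 had 4.92 ± 0.243 FPKM in cKO and 5.73 ± 0.848 FPKM in WT. The most abundant were Tnfaip3 (A20), the ubiquitin-editing brake on NF-kB, with 61.8 ± 3.34 FPKM in cKO and 65.8 ± 10.4 FPKM in WT, Rbck1 (HOIL-1) with 41.6 ± 2.92 FPKM in cKO and 42.7 ± 2.04 FPKM in WT, and Birc3 (cIAP2) with 37.4 ± 2.05 FPKM in cKO and 40.9 ± 6.65 FPKM in WT. The direction of Tnfaip3 turned without WT replicate 2.

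Of the genes that cut these ligands and receptors from the membrane, or control that step, all 6 were tested and 0 were called, with log2 differences of -0.01 to 0.07. Adam17, the protease that sheds TNF and both TNF receptors, had 30.1 ± 3.14 FPKM in cKO and 30.3 ± 2.43 FPKM in WT (SD, n = 4 each; 95% interval of the log2 difference -0.20 to 0.18), and its inhibitor Timp3 had 379 ± 41.3 FPKM in cKO and 375 ± 33.7 FPKM in WT. The iRhom genes Rhbdf1 and Rhbdf2, whose products carry Adam17 to the surface, had 67.5 ± 0.553 FPKM and 2.203 ± 0.687 FPKM in cKO, against 67.2 ± 3.81 FPKM and 2.03 ± 0.498 FPKM in WT. Furin, a protease that releases BAFF, had 4.60 ± 0.677 FPKM in cKO and 4.37 ± 0.231 FPKM in WT. The directions of all 5 turned when single libraries were left out.

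Of 16 target genes of TNF and lymphotoxin signalling in stroma 12 were tested and 0 called, with a median log2 difference of -0.11 and 3 of 12 higher in the cKO mean, against 47.4% of all tested genes. The median was -0.06 without cKO replicate 2 or without WT replicate 1, -0.07 without WT replicate 2, -0.17 without cKO replicate 1 and -0.18 with the epithelium list as a covariate. The chemokine gene Cxcl1 had 1737 ± 144 FPKM in cKO and 1917 ± 306 FPKM in WT (SD, n = 4 each), the adhesion molecule gene Icam1 261 ± 8.78 FPKM in cKO and 302 ± 44.6 FPKM in WT, and Il6 126 ± 22.7 FPKM in cKO and 141 ± 21.6 FPKM in WT. Relb, the transcription factor of the noncanonical pathway below the lymphotoxin beta receptor, had 21.6 ± 3.20 FPKM in cKO and 25.03 ± 2.06 FPKM in WT. Ccl21a, a lymphoid tissue chemokine, was at 11.9, 4.81, 7.20 and 7.63 FPKM in cKO replicates 1 to 4, against 4.49 FPKM in WT replicate 3 and at most 0.0017 FPKM in the other WT libraries. Its log2 difference of 2.48 was uncalled in limma (adjusted p = 0.761) and reached 3.09 (adjusted p = 0.00207) without WT replicate 3. The WT values of at most 0.0017 FPKM lie far below the 0.0308 FPKM inferred for 1 fragment of Tnfsf11 in WT replicate 2. They therefore stand for less than 1 whole fragment. Near-identical Ccl21 copies may share its fragments, so the value of this copy alone is uncertain. Neither the log2 difference nor its adjusted p can be read as a change in expression of this copy.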

How the data were processed

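Live podoplanin-positive stromal cells of the large intestine, 4 cKO and 4 WT mice, were profiled from SMART-Seq HT cDNA and Nextera XT libraries, per the labels' protocols. The authors deposited 1 table of FPKM values per library (24346 gene symbols, 1 value per gene, fractional). The submitters' processing notes name mm10, TopHat2 2.1.1, Bowtie2 2.3.5.1, SAMtools 0.1.18, Cufflinks 2.2.1 and Cuffdiff. Settings, annotation and strand use were not given in the sources used here. No table of fragment counts was used, and the fragments given for Tnfsf11 were inferred from its FPKM steps. Low-value steps gave an estimated depth of 17730000 fragments (median; quartiles 10650000 and 17880000), taken from 24 single-transcript genes. Groups and replicate numbers come from the sample titles, and the series' design text gives 4 mice per genotype.

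Values were transformed to log2(FPKM + 1), which understates differences of low genes. Genes with a mean of at least 1 FPKM over 8 libraries (11506) were fitted with limma 3.58.1 in R 4.3.3 (mean-variance trend, 2 groups) and adjusted over all of them. Members below that minimum (Tnf, Tnfsf11) and Il10ra come from the fit without it (18065 genes). Single values were compared by exact permutation over 70 arrangements. Other steps used Python 3.11.15 with scipy 1.17.1, pandas 2.3.3, numpy 2.4.6 and, for plots, matplotlib 3.10.9. The limma step was tested on simulated data. Gene positions are those of GENCODE M21 (GRCm38, the same build as mm10) and promoters those of RefSeq. Alternatives were a pseudocount of 0.1, no minimum or a minimum of 5 FPKM, quantile normalization, median-of-ratios scaling, no trend, the replicate number as a block, the epithelium list as a covariate, and each library left out.

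The members and gene lists were chosen with earlier results of these data known. Named genes were the members, Il10ra, the 3 most abundant and the 3 with the smallest unadjusted p of each pathway list, for each cell type the 3 markers with the highest mean, and the 3 nearest patterns of the 3 most variable members. Partner ligands and receptors of the members outside this rule were named for their role, after their values were seen, and are given as ranges with no test. The result of 1 cell type marker list is not reported here.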

Additional observations from a re-analysis of the deposited data

Results flagged for a closer look

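In 8 of the 74 groups of 4 libraries examined, 1 library stood apart from the other 3. Its gap was more than Dixon's 95% critical share of the group's whole range. Among the members, 4 of 18 groups were of this kind. The nominal rate of 1 in 20 holds for independent, normally distributed values. These groups share the same libraries, and the flagged Tnfsf11 and Ccl21a values rest on very few fragments. The counts are therefore no test of an excess over that rate. Tnfrsf11b was at 56.9 FPKM in cKO replicate 1, against 49.9 to 50.7 FPKM in the other cKO libraries. Cd40 was at 4.76 FPKM in cKO replicate 2, against 6.86 to 7.03 FPKM in the other cKO libraries. Ltbr was at 33.7 FPKM in WT replicate 1, against 30.1 to 30.3 FPKM in the other WT libraries. Tnfsf11 was at 0.0308 FPKM in WT replicate 2, against 0.0521 to 0.0534 FPKM in the other WT libraries, which is 1 fragment against 2.

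Among the other genes, Tnfsf13 was at 4.96 FPKM and Birc3 at 40.4 FPKM in cKO replicate 1, against 1.57 to 2.12 FPKM and 36.1 to 36.5 FPKM in the other cKO libraries. Rbck1 was at 45.9 FPKM in cKO replicate 2, against 39.7 to 40.3 FPKM in the other cKO libraries. Ccl21a was at 4.49 FPKM in WT replicate 3, against at most 0.0017 FPKM in the other WT libraries.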

How the results depend on the processing

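No member was called by limma under any of the 16 alternatives, and 132 of 140 alternative values of the members kept their direction and their side of the threshold, with a smallest adjusted p of 0.543. The other 8 turned direction. Tnfrsf1a was 0.011 with quantile normalization and ran from -0.0486 to 0.0291 with single libraries left out, Ltbr was 0.0229 with the epithelium covariate and ran from -0.0446 to 0.0279, and Cd40 ran from -0.1949 to 0.045. With single libraries left out, Eda ran from -0.0281 to 0.1219, Eda2r from -0.0641 to 0.1458, Tnfrsf23 from -0.1744 to 0.0629, Tnfaip3 from -0.1596 to 0.0088, Timp3 from -0.0324 to 0.0601, Rhbdf1 from -0.023 to 0.0413, Adam17 from -0.0644 to 0.0434, Furin from -0.0219 to 0.113 and Rhbdf2 from -0.0684 to 0.1683. Eda2r was -0.005 with quantile normalization, and with the epithelium covariate Timp3 was -0.0317 and Rhbdf2 -0.0496. The cause was not tested. The count of called genes over the whole table was 1 under all alternatives that keep every library and 1 to 4 with single libraries left out (4 when cKO replicate 1 was omitted, 2 when cKO replicate 2 was and 3 when WT replicate 3 was). The genotype difference in the log2 ratio of RANKL to OPG ran from -0.0256 to 0.0986 with single libraries left out and was 0.42 with a pseudocount of 0.1 (exact permutation p = 0.343). That of Tnfrsf1b to Tnfrsf1a ran from -0.25 to -0.14, where 3 against 4 libraries can give no exact p below 0.0571. Same-numbered libraries deviated from their group means with correlations of 0.018 to 0.091, and 1 of 4 cKO libraries correlated best with its own number, so the numbers were not taken to pair the mice. With the replicate block limma called 1 gene and 0 members, and the ratios differed by 0.03 (exact sign-flip p = 0.875) and -0.20 (exact sign-flip p = 0.25). The added constant sets the size for the low genes Tnf and Tnfsf11, whose log2 differences were 0.58 and 0.48 with a pseudocount of 0.1, against 0.22 and 0.09 with 1. Tnfsf11 rests on 1 to 8 inferred fragments per library.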
